A study of Homo sapiens with 9 samples.

Results

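A set of 31 genes used their transcripts differently from the empty vector line in both lines that overexpressed an isoform of NF-YA, the DNA-binding subunit of the transcription factor NF-Y. The genes were chosen by a rule on these measurements. A member had 2 or more transcripts in the files, a gene level of at least 3 TPM, the RSEM unit of expression scaled to transcript length and depth, in all 9 libraries, and a transcript whose mean share of the gene's TPM differed from Empty by 20 or more percentage points in the same direction in NF-YAl and in NF-YAs, with the 6 libraries of those lines on one side of the 3 Empty libraries. Of 27111 genes in the files, 11528 had 2 or more transcripts, 6521 also reached the TPM limit, and 31 of these held the 43 transcripts that met the whole rule. Because the rule read the differences from Empty, these differences are given as a description, with no test.

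PC3 is a human prostate cancer cell line derived from a bone metastasis. The cells were transduced with lentiviral particles that carried an empty vector (Empty) or the murine sequence of the long (NF-YAl) or short (NF-YAs) NF-YA isoform, selected with puromycin and grown as multicellular tumor spheroids (MTSs) in medium with Matrigel. Each of the 3 libraries per line held RNA of pooled MTSs, from 3 independent experiments according to the methods of the study. All groups thus share the cell line, the vector backbone, the selection and the culture, and each condition is 1 transduced line. In bulk RNA, fewer cells of a type and less RNA per cell cannot be told apart.

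Most human genes give rise to several transcripts. These differ by the promoter at which transcription starts, by the exons and splice sites that are joined, or by the site at which the RNA is cleaved and polyadenylated, and they can encode different proteins or none. The share of a gene's output that goes to each transcript can differ between cells while the level of the gene does not. Short reads do not span whole transcripts, so each share is an estimate, least certain where the transcripts of a gene are nearly identical.

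Depth was 18076979 to 27163976 expected counts per library. NFYA had 19.9, 16.5 and 14.96 TPM in the Empty libraries, 59.3, 67.5 and 116 with NF-YAl and 60.8, 54.2 and 49.3 with NF-YAs, and all libraries of both lines were above all Empty libraries. Reads of the murine sequence that match human NFYA are counted in these values. For many other genes too, NF-YAl library D had the highest TPM of its line. ACTB, for example, had 1210, 1205 and 2312 TPM in NF-YAl libraries A, B and D. TPM means and SDs of NF-YAl below include this library, and the cause was not tested. Of 6 epithelial markers 4 had over 1 TPM in every library, with a summed level of 928 to 1154 TPM in Empty, 587 to 1080 with NF-YAl and 663 to 737 with NF-YAs, and their part in the results was not tested. KLK3 was listed at 0 in every library and KLK2 stayed under 1 TPM, and the 5 prostate luminal and androgen axis genes summed to 5.83 to 10.1 TPM. The summed levels were 0.65 to 1.78 TPM for 5 leukocyte markers, all of them under 1 TPM, 1.42 to 2.95 TPM for 4 endothelial markers and 3.48 to 8.56 TPM for 5 fibroblast and pericyte markers.

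The files give the length of each RefSeq transcript and not its exons. In each gene the chosen transcript with the largest shift was set beside the transcript with the largest mean difference in the opposite direction. The transcript of this pair with the higher share in the lines is called the gaining transcript below, and the other the losing transcript. GENCODE annotation of GRCh37, the build of the files, was searched for a cassette exon or an alternative splice site that adds exactly the length by which the pair differ. It held such a segment in 12 of the 31 genes, 1 in each of 11 and 2 in ZNF143. The match is by length alone and does not show that the deposited transcripts differ there. The sequences below were picked to show each kind of segment, 2 cassette exons, 2 pairs of donor sites and 2 pairs of acceptor sites, with the segment of the longer form in capitals and 10 flanking bases on each side in lower case.

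The EVI5 segment is a coding cassette exon of 33 nt, shown for chr1:93128967-93129019 on the minus strand.
EVI5: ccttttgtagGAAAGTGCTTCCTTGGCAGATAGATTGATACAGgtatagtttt
The CRELD1 segment is a coding cassette exon of 194 nt, shown for chr3:9985576-9985789 on the plus strand.
CRELD1: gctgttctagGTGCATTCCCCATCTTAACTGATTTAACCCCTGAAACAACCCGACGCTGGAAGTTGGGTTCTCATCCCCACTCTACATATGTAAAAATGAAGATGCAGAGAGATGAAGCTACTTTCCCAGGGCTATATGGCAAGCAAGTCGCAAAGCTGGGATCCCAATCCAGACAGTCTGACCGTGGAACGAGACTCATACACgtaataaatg
The TWNK segment of 44 nt lies between 2 donor sites and is partly coding, shown for chr10:102750758-102750821 on the plus strand.
TWNK: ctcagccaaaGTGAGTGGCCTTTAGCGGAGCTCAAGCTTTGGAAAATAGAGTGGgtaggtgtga
The FUT2 segment of 10 nt lies between 2 donor sites outside the coding sequence, shown for chr19:49199327-49199356 on the plus strand.
FUT2: gcaggaccagGTGAGAGAAGgtgagggggc
The KCTD15 and AHCYL2 segments are 3 nt each and lie between 2 acceptor sites, outside the coding sequence in KCTD15 (chr19:34289563-34289585, plus strand) and inside it in AHCYL2 (chr7:129019469-129019491, plus strand).
KCTD15: ctgacttaagCAGtggtctcgga
AHCYL2: tttttcttagCAGatccagtttg
The capitals of both cassette exons are preceded by AG and followed by GT, the usual bases at the ends of introns. In KCTD15 and AHCYL2 the last bases before the segment and the last bases of the segment are both AG, so that each can end an intron.

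The 43 chosen transcripts were 21 with a higher and 22 with a lower share than Empty. They were 0.168% of the 25662 transcripts of the 6521 genes. With the same limits of 20 points and no overlap, 180 transcripts (0.701%) in 128 genes stood apart from Empty in NF-YAl and 260 transcripts (1.01%) in 179 genes in NF-YAs. These comparisons share the Empty libraries, so a high or low Empty library enters both. Of the 45 transcripts past the limits in both lines, 2 lay on opposite sides of Empty. Just inside the limit were a UBL7 transcript, with differences of -20.01 points in NF-YAl and -23.7 in NF-YAs, and a PYM1 transcript with 31.2 and 20.5 points. Just outside it were transcripts of HDAC11, with -19.98 and -21.1 points, and of PPP1R16A, with 19.9 and 23.2 points.

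In 11 of the 31 genes both transcripts of the pair met the rule. FUT2, EVI5, PPP2R2A, C1orf106 and PYM1 have only 2 transcripts, so that 1 share fixes the other and both must meet it. The gaining transcript was longer in 13 genes and shorter in 18, and the lengths of the pair differed by 3 to 909 nt with a median of 90 nt. In 13 genes they differed by at most 50 nt. When transcripts within 30 nt of each other in length were added up, 9 members did not meet the rule. These were FUT2, KCTD15, FKBP9P1, FGFRL1, CREB3L4, AHCYL2, ZNF143, INSIG2 and TMEM218. The transcript with the highest mean share in Empty gave way to another in both lines in 16 genes, in 1 line in 3 genes and in neither line in 12.

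**Figure D1:**
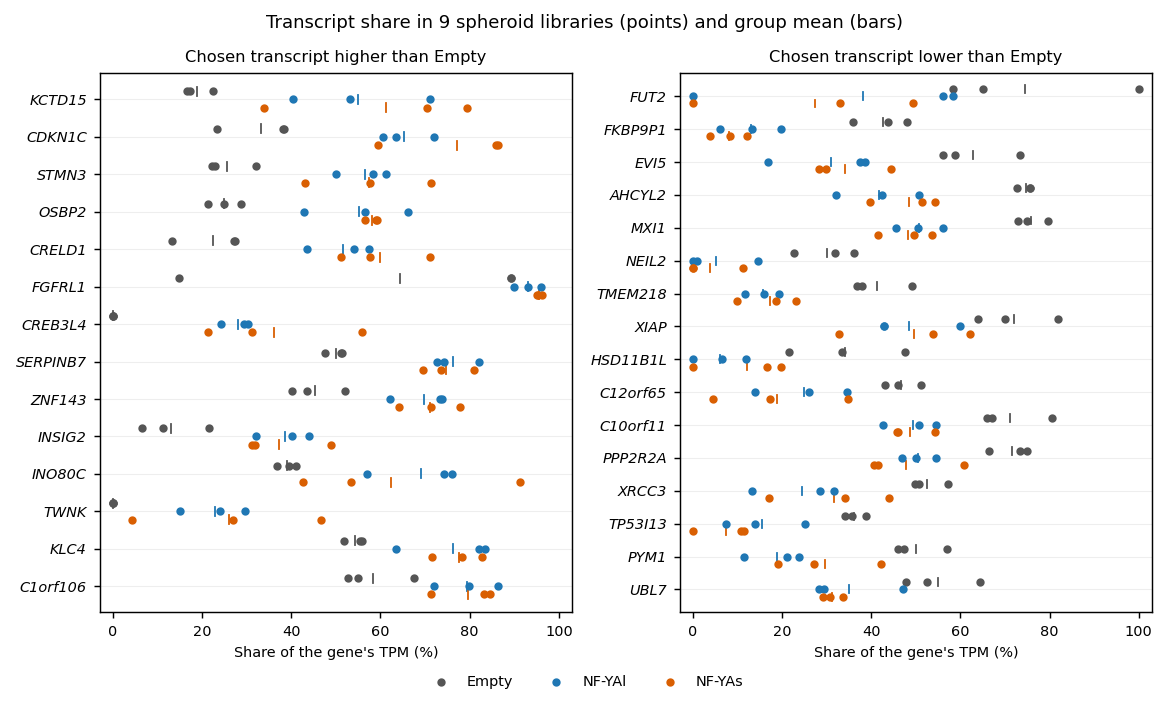
Share of the gene's TPM (%, x axis) taken by the chosen transcript with the largest shift in each of 30 of the 31 genes (y axis), with a point for each of the 9 libraries and a bar at each group mean. In every gene shown the points of both lines lie on one side of the 3 Empty points, which the rule required, and the Empty points of CREB3L4 and TWNK are at 0.

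Among genes that act on transcription and growth was KCTD15, a BTB domain protein that inhibits transcription factors of the AP-2 family. Its 3930 nt transcript took 17.3, 16.6 and 22.4% of the TPM in Empty libraries A, B and C, against 71.2, 53.1 and 40.5% in the NF-YAl libraries and 70.4, 33.96 and 79.3% in the NF-YAs libraries. The 3933 nt transcript took 68.9, 72.6 and 64.3% in the Empty libraries, 19.1, 34.9 and 51.02% with NF-YAl and 16.5, 54.4 and 12.1% with NF-YAs. Groups did not overlap for either transcript, and NF-YAs library B lay nearest to Empty. The pair differ by 3 nt, the length of the segment printed above. KCTD15 did not meet the rule when transcripts within 30 nt were added up. The log2 fold change of the gene against Empty was -0.04 ± 0.09 (SE, 3 libraries against 3) for NF-YAl, and it was nearer 0 for NF-YAs.

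CDKN1C, the cyclin-dependent kinase inhibitor p57, had a 1763 nt transcript at 38.3, 38.1 and 23.4% in the Empty libraries, 71.9, 63.6 and 60.6% with NF-YAl and 86.3, 59.4 and 85.9% with NF-YAs. The means were 33.3 ± 8.55% in Empty, 65.3 ± 5.89% with NF-YAl and 77.2 ± 15.4% with NF-YAs (SD, n = 3). The 1930 nt transcript took 48.6 ± 7.67% in Empty, 27.1 ± 5.57% with NF-YAl and 17.6 ± 6.33% with NF-YAs. The longer form had the higher mean share in Empty and the shorter form in both lines.

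MXI1, a partner of MAX that opposes MYC, had a 3470 nt transcript at 79.7, 74.98 and 73.01% in the Empty libraries, 50.4, 45.5 and 56.2% with NF-YAl and 53.6, 41.5 and 49.6% with NF-YAs. The 3272 nt transcript took 17.2, 16.8 and 19.6% in the Empty libraries, 43.9, 50.4 and 39.1% with NF-YAl and 34.99, 42.5 and 43.3% with NF-YAs. The longer form had the higher mean share in every group.

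ZNF143, a zinc finger factor that binds promoters, had a 2947 nt transcript at 40.1, 52.05 and 43.6% in the Empty libraries, 73.4, 73.8 and 62.1% with NF-YAl and 77.8, 71.3 and 64.05% with NF-YAs. The partner, 3 nt shorter, took 43.4 ± 7.85% in Empty, 28.02 ± 9.09% with NF-YAl and 25.02 ± 3.29% with NF-YAs. CREB3L4, a membrane-bound transcription factor of the endoplasmic reticulum, had a 1817 nt transcript at 0, 0 and 0% in the Empty libraries, 29.4, 24.3 and 30.2% with NF-YAl and 21.3, 55.8 and 31.1% with NF-YAs. An exact 0 is an estimate of the software, and the highest expected count of this transcript in any library was 92.4.

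XIAP, an inhibitor of caspases, had a 8451 nt transcript at 63.9, 69.95 and 81.9% in the Empty libraries, 59.8, 42.9 and 42.9% with NF-YAl and 62.1, 32.8 and 53.9% with NF-YAs. Library A of each line lay close below the lowest Empty library. A noncoding transcript of 7542 nt took 6.04 ± 3.66% in Empty, 24.2 ± 1.67% with NF-YAl and 32.2 ± 8.03% with NF-YAs. PPP2R2A, a regulatory subunit of the phosphatase PP2A, had 2 transcripts, of which the longer took 28.5 ± 4.49% in Empty, 49.5 ± 3.79% with NF-YAl and 52.3 ± 11.4% with NF-YAs.

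FGFRL1, a receptor for fibroblast growth factors without a kinase domain, met the rule through 1 library. Its 3088 nt transcript took 14.8, 89.3 and 89.2% of the TPM in Empty libraries A, B and C, against 96.01, 93.1 and 89.97% in the NF-YAl libraries and 95.3, 95.01 and 96.1% in the NF-YAs libraries. Empty library A alone was far from the other libraries, and without it the gene did not meet the rule. A transcript 10 nt longer took the rest of the TPM in Empty library A and at most 0.79% in the other libraries.

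INO80C, a subunit of the INO80 chromatin remodeling complex, had the lowest gene count of the members, 78 in 1 library. Its 980 nt transcript took 39.5, 36.7 and 40.97% in the Empty libraries, 74.3, 57.1 and 76.1% with NF-YAl and 42.6, 91.3 and 53.5% with NF-YAs, so that NF-YAs library A lay just above Empty. TP53I13, a gene induced by p53, had a 1576 nt transcript at 36.2 ± 2.31% in Empty, 15.5 ± 8.96% with NF-YAl and 7.40 ± 6.42% with NF-YAs.

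**Figure D2:**
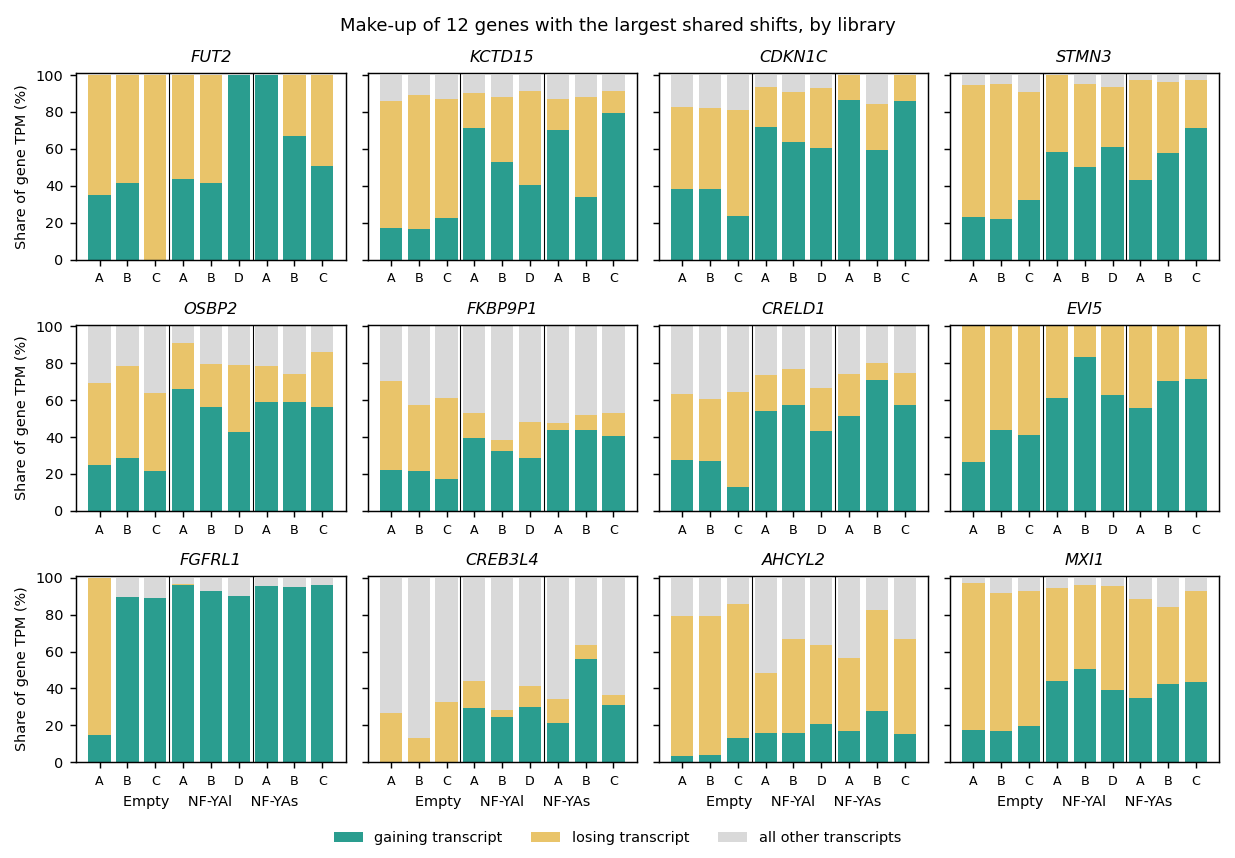
Stacked share of the gene's TPM (%, y axis) taken by the gaining, the losing and all other transcripts in each of the 9 libraries (x axis, replicate letters within the 3 lines) for the 12 genes with the largest shared shifts. FUT2 ranges from 0 to 100% between libraries, and FGFRL1 differs from the lines through Empty library A.

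Among genes of lipids, membranes and glycans, OSBP2, of the oxysterol-binding protein family, had a 4340 nt transcript at 24.9, 28.7 and 21.4% in the Empty libraries, 66.1, 56.6 and 42.8% with NF-YAl and 59.02, 59.2 and 56.4% with NF-YAs. Its 3580 nt transcript took 44.5, 50.04 and 42.5% in the Empty libraries, 25.1, 22.8 and 36.5% with NF-YAl and 19.8, 15.3 and 29.9% with NF-YAs. Neither overlapped between Empty and the lines. The longer transcript was at 8.47 ± 1.57 TPM in Empty, 8.43 ± 1.58 with NF-YAl and 6.67 ± 0.69 with NF-YAs, and the shorter at 15.5 ± 2.004 TPM in Empty, 4.88 ± 3.35 with NF-YAl and 2.44 ± 0.65 with NF-YAs. The level of the shorter form differed more than that of the longer one. The gene had log2 fold changes against Empty of -1.31 ± 0.11 (NF-YAl) and -1.62 ± 0.12 (NF-YAs), which were the lowest of the members. OSBP2 was the only member that met the rule in all 17 alternatives tried.

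FUT2, the fucosyltransferase of secretor status, had a 3089 nt transcript at 65.01, 58.4 and 100% in the Empty libraries, 56.1, 58.3 and 0% with NF-YAl and 0, 32.98 and 49.4% with NF-YAs. NF-YAl library B and Empty library B were nearly equal, and the share was at 0 in 1 library of each line. FUT2 had the lowest mean level of the members, 4.95 TPM, and its 2 transcripts differ by 10 nt, the length of the segment printed above. AHCYL2, related to S-adenosylhomocysteine hydrolase, had a 5062 nt transcript at 75.7, 75.5 and 72.8% of the TPM in Empty libraries A, B and C, against 32.1, 50.7 and 42.4% in the NF-YAl libraries and 39.7, 54.3 and 51.3% in the NF-YAs libraries. The partner, 3 nt longer, took 6.76 ± 5.36% in Empty, 17.7 ± 2.79% with NF-YAl and 20.1 ± 6.85% with NF-YAs, and other transcripts of the gene took the rest.

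INSIG2, a protein of the endoplasmic reticulum that retains the SREBP escort SCAP, had a 2275 nt transcript at 6.54, 11.2 and 21.5% in the Empty libraries, 31.98, 40.1 and 43.9% with NF-YAl and 48.97, 31.1 and 31.8% with NF-YAs. HSD11B1L, a dehydrogenase-like protein with 96 gene counts in its lowest library, had a 1625 nt transcript at 34.1 ± 13.004% in Empty, 6.16 ± 5.94% with NF-YAl and 12.2 ± 10.6% with NF-YAs. CRELD1, a protein with EGF-like domains, had a 2196 nt transcript at 27.4, 27.04 and 13.2% in the Empty libraries, 54.03, 57.5 and 43.5% with NF-YAl and 51.2, 71.1 and 57.6% with NF-YAs. The longer CRELD1 transcript, 194 nt longer as the exon printed above would make it, took 40.2 ± 9.46% in Empty, 20.7 ± 2.26% with NF-YAl and 16.4 ± 6.88% with NF-YAs. TMEM218, a transmembrane protein with 18 transcripts in the files, had a 4037 nt transcript at 41.3 ± 6.90% in Empty, 15.7 ± 3.74% with NF-YAl and 17.2 ± 6.82% with NF-YAs.

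The genes of the cytoskeleton and of vesicle traffic were STMN3, EVI5 and KLC4. STMN3, a stathmin that destabilizes microtubules, had a 2441 nt transcript at 22.8, 22.1 and 32.05% in the Empty libraries, 58.2, 50.04 and 61.2% with NF-YAl and 43.1, 57.7 and 71.3% with NF-YAs. Its 2351 nt transcript took 67.9 ± 7.69% in Empty, 39.7 ± 6.65% with NF-YAl and 39.6 ± 14.1% with NF-YAs. Both had a higher mean level in the lines, the longer at 2.54 ± 0.31 TPM in Empty, 14.7 ± 8.41 with NF-YAl and 22.1 ± 5.01 with NF-YAs, the shorter at 6.92 ± 1.81 TPM in Empty, 9.84 ± 3.90 with NF-YAl and 15.4 ± 5.80 with NF-YAs. STMN3 had the highest gene level differences from Empty, 1.03 ± 0.23 for NF-YAl and 1.79 ± 0.23 for NF-YAs on the log2 scale.

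EVI5, a TBC domain protein that acts on Rab GTPases and in cell division, had 2 transcripts that differ by 33 nt. The longer took 73.4, 56.1 and 58.7% of the TPM in Empty libraries A, B and C, against 38.6, 16.8 and 37.4% in the NF-YAl libraries and 44.3, 29.8 and 28.3% in the NF-YAs libraries, with no overlap of Empty and either line. The shorter, which would lack the exon printed above, took 37.2 ± 9.31% in Empty, 69.1 ± 12.3% with NF-YAl and 65.9 ± 8.85% with NF-YAs. The lowest gene count of EVI5 in a library was 999. KLC4, a kinesin light chain, had a 2404 nt transcript at 51.8, 55.4 and 55.8% in the Empty libraries, 82.2, 83.4 and 63.4% with NF-YAl and 78.4, 71.5 and 82.8% with NF-YAs.

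The genes of DNA repair and of mitochondria were TWNK, C12orf65, XRCC3 and NEIL2. TWNK, the helicase of mitochondrial DNA, had a 3665 nt transcript at 0, 0 and 0% in the Empty libraries, 29.5, 24.1 and 15.1% with NF-YAl and 4.32, 26.99 and 46.7% with NF-YAs. It exceeds the 3621 nt transcript by 44 nt, the length of the segment printed above. The 3621 nt transcript took 58.7, 50.8 and 54.5% in the Empty libraries, 24.03, 27.9 and 40.7% with NF-YAl and 53.2, 23.4 and 0% with NF-YAs. Another TWNK transcript, of 1781 nt, also met the rule, with 19.1 ± 1.74% in Empty, 39.6 ± 8.39% with NF-YAl and 41.4 ± 14.3% with NF-YAs. NF-YAs library A lay nearest to Empty for all of these.

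C12orf65, also named MTRFR, a factor that rescues stalled mitochondrial ribosomes, had a 1692 nt transcript at 39.6, 50.6 and 42.3% in the Empty libraries, 56.1, 62.4 and 76.9% with NF-YAl and 84.8, 78.7 and 55.8% with NF-YAs. Its 1608 nt transcript took 46.8 ± 4.15% in Empty, 24.8 ± 10.3% with NF-YAl and 18.8 ± 15.2% with NF-YAs. XRCC3, a protein of homologous recombination, had a 2639 nt transcript at 49.7, 50.7 and 57.1% in the Empty libraries, 28.6, 13.3 and 31.5% with NF-YAl and 17.1, 34.04 and 43.9% with NF-YAs. NEIL2, a DNA glycosylase of base excision repair, had a 2062 nt transcript at 36.1, 22.6 and 31.9% in the Empty libraries, 0.85, 0 and 14.5% with NF-YAl and 11.3, 0 and 0% with NF-YAs.

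The remaining members have other roles. SERPINB7, a serine protease inhibitor of clade B, had the highest mean level of the members, 44.1 TPM. Its 1951 nt transcript took 51.1, 47.6 and 51.3% of the TPM in Empty libraries A, B and C, against 81.99, 72.6 and 74.3% in the NF-YAl libraries and 80.9, 73.6 and 69.6% in the NF-YAs libraries. The 2244 nt transcript took 48.9, 48.04 and 46.6% in the Empty libraries, 18.01, 26.6 and 25.7% with NF-YAl and 17.9, 26.4 and 30.4% with NF-YAs. Both forms were near equal in Empty, and the shorter was ahead in every library of the lines. The longer form was at 24.6 ± 4.54 TPM in Empty, 11.6 ± 5.51 with NF-YAl and 7.64 ± 0.90 with NF-YAs, and the shorter at 25.8 ± 5.49 TPM in Empty, 37.7 ± 14.2 with NF-YAl and 23.8 ± 5.94 with NF-YAs.

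PYM1, which takes exon junction complexes off mRNA, had 2 transcripts, of which the 1087 nt one took 52.7, 54.05 and 43.1% in the Empty libraries, 88.5, 76.2 and 78.8% with NF-YAl and 80.9, 72.8 and 57.7% with NF-YAs. UBL7, a ubiquitin-like protein, had a 1437 nt transcript at 64.5, 47.8 and 52.4% in the Empty libraries, 47.1, 29.4 and 28.2% with NF-YAl and 30.8, 29.1 and 33.8% with NF-YAs, so that NF-YAl library A lay just below Empty library B. C1orf106, also named INAVA, had a 4141 nt transcript at 67.6, 52.8 and 54.9% in the Empty libraries, 71.9, 86.3 and 79.9% with NF-YAl and 71.4, 84.5 and 83.2% with NF-YAs. It met the rule in 4 of the 9 sets that left out a library, the fewest of the members.

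C10orf11, also named LRMDA, had an 847 nt transcript at 67.1, 80.6 and 65.9% in the Empty libraries, 42.7, 50.8 and 54.4% with NF-YAl and 45.8, 54.3 and 46.01% with NF-YAs. A noncoding transcript of 1122 nt took 6.11 ± 0.80% in Empty, 20.8 ± 3.05% with NF-YAl and 24.3 ± 6.97% with NF-YAs. FKBP9P1, a pseudogene of FKBP9 that can share reads with it, had a 2437 nt transcript at 48.02, 35.9 and 43.7% in the Empty libraries, 13.3, 6.16 and 19.8% with NF-YAl and 3.87, 8.26 and 12.2% with NF-YAs. The partner, 14 nt longer, took 20.4 ± 2.61% in Empty, 33.5 ± 5.69% with NF-YAl and 42.9 ± 1.81% with NF-YAs, and both are noncoding.

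**Figure D3:**
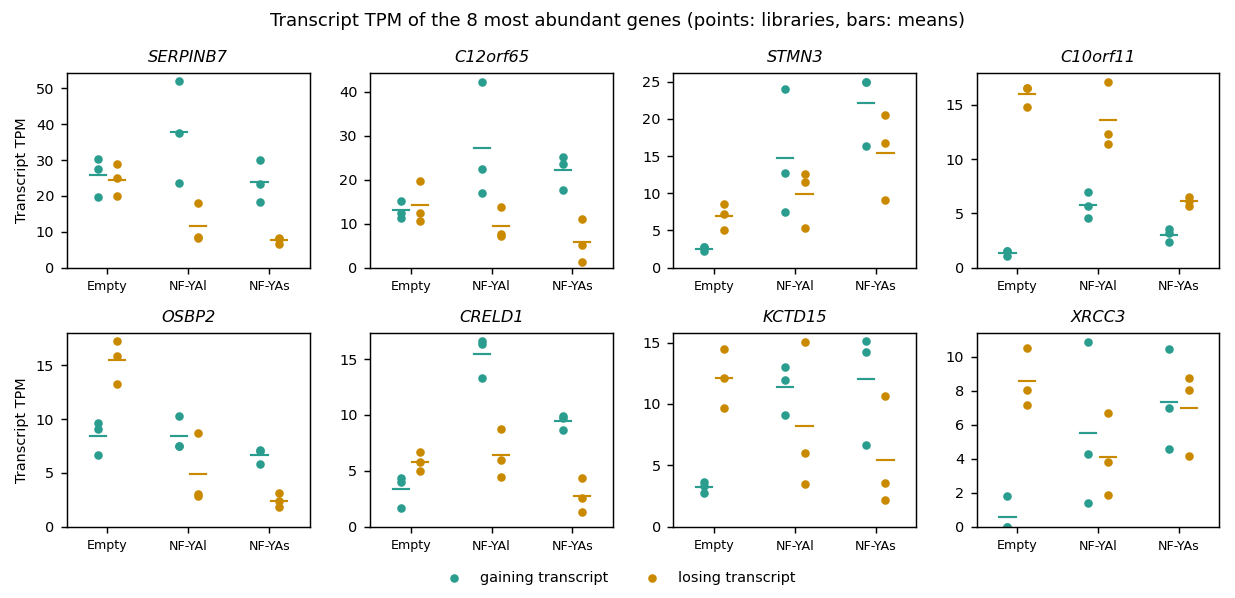
TPM of the gaining and the losing transcript (y axis, from 0) in each library of the 3 lines (x axis) for the 8 most abundant of the 31 genes, with a bar at each group mean. The losing SERPINB7 and OSBP2 transcripts have lower means in both lines than in Empty, and both STMN3 transcripts have higher means.

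In levels rather than shares, the gaining transcript had a higher mean TPM than in Empty and the losing one a lower mean TPM in 27 of the 31 genes with NF-YAl and in 27 with NF-YAs. Over all tested genes the median log2 ratio of mean TPM to Empty was 0.35 for NF-YAl and 0.16 for NF-YAs. With that median taken off, the counts were again 27 and 27, and in each line 1 gene had both transcripts higher and 3 had both lower. The pairs were picked by their shares of this same TPM. These directions thus follow in large part from the choice and are no separate support for the shifts.

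The members were less deeply covered than the genes they were chosen from. Their median level was 10.7 TPM against 18.98 TPM over the 6521 genes, and the median of the lowest gene count over libraries was 372 against 687. Both sets had a median of 3 transcripts per gene. The median SD of the share of a chosen transcript was 5.97 points in Empty, 7.22 with NF-YAl and 10.1 with NF-YAs, against 3.71, 4.49 and 4.14 points over the 15943 transcripts with a mean share of at least 5%. Shares of chosen transcripts thus had the larger median spread within each line. The difference of length and effective length, which follows the fragment length of a library, was 149 to 157 nt in Empty, 145 to 159 nt with NF-YAl and 156 to 167 nt with NF-YAs, and its part in the shares was not tested.

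The rule did not set NF-YAl against NF-YAs, but it read the shares of both lines and asked for the same direction in them. The comparison of the lines is therefore a description for the chosen transcripts and no independent test of them. The edgeR quasi-likelihood test of each transcript against its gene called 26 of 25666 transcripts (0.101%) at an adjusted p under 0.05. Among the 43 chosen transcripts edgeR called 0 and 0 had an unadjusted p under 0.05. limma called 98 transcripts in all and 0 of the 43, of which 1 had an unadjusted p under 0.05. The limits of 20 points and no overlap were passed between the lines by 0 of the 43, against 195 of the 25662 transcripts (0.76%).

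The mean shares of the chosen transcripts in NF-YAl and NF-YAs differed by 0.1 to 11.8 points, with a median of 3.23 points, and by 10 or more points in 5 of the 43. CDKN1C had the largest of these differences, in the 1763 nt transcript. The 3 NF-YAl libraries were apart from the 3 NF-YAs libraries for 0 of the 43, and for 11.9% of the 25662 transcripts. The edgeR test sets each transcript against a mean of its gene that includes it, which makes it strict in genes of few transcripts, and the lack of a call does not show that the lines act alike.

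For whole genes, the same comparison used the limits stated in the study's methods, an adjusted p under 0.01 with a log2 fold change above 1 in size. edgeR called 788 of 17108 genes (4.61%) between NF-YAl and NF-YAs. Among the 31 members edgeR called 0 and DESeq2 called 0, while 20 had an unadjusted edgeR p under 0.05, as did 36.5% of all genes tested. With no limit on the fold, 12 members had an edgeR adjusted p under 0.05, against 3989 genes in all (23.3%). Of these 8 were higher in NF-YAl and 4 in NF-YAs. The largest differences were 0.999 ± 0.16 in C10orf11 (log2 of NF-YAl over NF-YAs ± SE, edgeR adjusted p = 0.0012), 0.96 ± 0.13 in CREB3L4 (edgeR adjusted p = 0.00045) and 0.81 ± 0.12 in CRELD1 (edgeR adjusted p = 0.00083). On the other side stood STMN3, at -0.76 ± 0.23 (edgeR adjusted p = 0.03), and XRCC3, at -0.64 ± 0.12 (edgeR adjusted p = 0.0028). The STMN3 call was lost with only the libraries of these 2 lines and without NF-YAs replicate B (edgeR adjusted p = 0.11) or C (0.076).

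Against Empty, the gene level of the members is described without a test. The log2 fold change was within 1 unit in both lines in 26 of the 31 genes, with a median of -0.04 for NF-YAl and -0.13 for NF-YAs, beside 0.01 and -0.0026 over all genes tested. It ranged from -1.31 to 1.03 for NF-YAl and from -1.62 to 1.79 for NF-YAs. Besides OSBP2 and STMN3, the genes past 1 unit in some line were INO80C, at -1.15 ± 0.15 for NF-YAl and -1.02 ± 0.15 for NF-YAs, INSIG2, at -1.19 ± 0.17 in NF-YAs, and CDKN1C, at -1.03 ± 0.21 in NF-YAs.

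**Figure D4:**
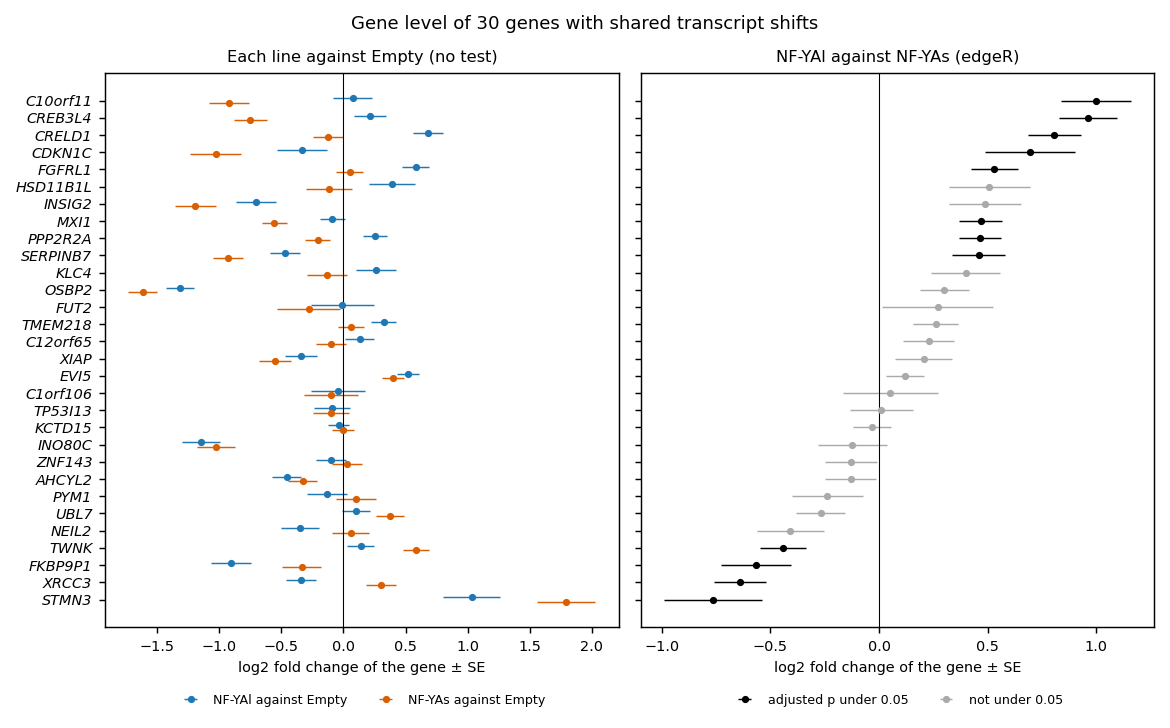
log2 fold change ± SE (x axis) of 30 of the 31 genes (y axis) in each line against Empty (left, no test) and in NF-YAl against NF-YAs (right, black where the edgeR adjusted p is under 0.05). STMN3 lies highest and OSBP2 lowest against Empty in both lines, and 12 genes are black on the right, 8 of them above 0.

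Transcript choice depends in part on the promoter used, and promoter use was not measured here. It also depends on RNA-binding splicing factors and on the factors that cleave and polyadenylate RNA. Nonsense-mediated decay adds to this through the loss of transcripts with early stop codons. Of 112 listed genes of these machineries 109 were tested at gene level. edgeR called 1 of them in NF-YAl against Empty, beside 1414 of all genes (8.27%), and 2 in NF-YAs, beside 1598 (9.34%). Among 70 tested splicing regulators, the 1 gene called in each line was NOVA2, a KH domain factor known from neurons. NOVA2 had 0.31, 0.16 and 0.17 TPM in the Empty libraries, 1.12, 0.91 and 1.09 with NF-YAl and 0.86, 0.64 and 0.62 with NF-YAs, and its libraries in both lines were above all Empty libraries. It rose by 2.03 ± 0.24 (log2 ± SE) in NF-YAl, with an edgeR adjusted p of 7.6e-05, and by 1.56 ± 0.25 in NF-YAs, with an edgeR adjusted p of 0.00046. Its level stayed near or under 1 TPM.

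Of the 21 cleavage and polyadenylation factors, edgeR called CSTF2 in NF-YAs, the RNA-binding subunit of the cleavage stimulation factor. CSTF2 had 20.9, 16.9 and 14.8 TPM in the Empty libraries, 15.2, 27.7 and 56.4 with NF-YAl and 49.6, 45.5 and 40.4 with NF-YAs. Its log2 fold change in NF-YAs was 1.19 ± 0.23 (edgeR adjusted p = 0.0018), and the call was lost without Empty replicate C (edgeR adjusted p = 0.011). In NF-YAl it was 0.53 ± 0.23 (edgeR adjusted p = 0.098), and the NF-YAl libraries overlapped both other groups. Of the 18 factors of nonsense-mediated decay none was called. With an edgeR adjusted p under 0.05 and no fold limit, 11 splicing regulators, 1 polyadenylation factor and 1 decay factor passed with NF-YAl, beside 19, 5 and 5 of them with NF-YAs. That was 13 and 29 of the 109 genes, while the same limit was passed by 32.1% of all genes with NF-YAl and by 35.5% with NF-YAs. The median log2 fold change of the splicing regulators was 0.07 in each line, beside 0.01 and -0.0026 over all genes.

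No gene on the lists of splicing regulators, polyadenylation factors, decay factors, genes known for exons that change in epithelial to mesenchymal transition, actin cytoskeleton genes and NF-Y subunits was among the 31 members. Of 34 genes known for exons of that transition 28 met the limits on transcripts and TPM, and 0 had a transcript past 20 points with no overlap in either line. The same count was 0 of 30 for the actin cytoskeleton. Over all 6521 genes such a transcript was present in 1.96% for NF-YAl and 2.74% for NF-YAs. In the other lists MBNL2, a splicing regulator, and NFYA itself had such a transcript in NF-YAs and not in NF-YAl, a difference that was not tested. The NFYA shares include reads of the murine sequence that match human NFYA, so they do not describe the cells' own gene alone.

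NF-Y binds the sequence CCAAT in promoters. RefSeq start sites of GRCh38.p14 were matched to 23 of the 31 members, 3 of them by an older symbol, with 45 windows of 300 bases around a start. CCAAT on either strand was present in 11 of the 45 windows, or 24.4%. Over all 35116 windows the share was 34.6%. By gene, 10 of the 23 matched members had CCAAT in some window, and the share by gene over all genes was not computed. Genes with several windows weigh more in the share of windows. A match of 5 letters is a description and not a binding site, and windows of 1 gene can overlap.

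The 31 members lay on 19 chromosomes, with at most 3 on any of them. In GENCODE annotation of GRCh37, 16 overlapped a gene on the opposite strand and 10 a gene on the same strand. The share over all genes was not computed, so these counts do not set the members apart. The libraries were stranded, but whether the counting used strand is not given in the sources used here, so reads of such neighbours may be counted together.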

How the data were processed

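RNA of PC3 MTSs was sequenced from 9 stranded total RNA libraries, 3 for each line, grouped by the submitted sample titles. The authors aligned reads to RefSeq transcripts of hg19 with Bowtie2 within RSEM, and deposited expected counts and TPM per gene and transcript. The percent of a gene's TPM in each transcript was deposited with them, as the RSEM isoform share. Transcript lengths were also deposited.

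Expected counts were rounded and fitted with edgeR 4.0.16 (quasi-likelihood, TMM, all 9 libraries). Transcript usage was tested with diffSpliceDGE and, as an alternative, with limma 3.58.1. Gene levels were also tested with DESeq2 1.42.0. p-values were adjusted by Benjamini-Hochberg over all features tested, and the scripts were tested on simulated data. Alternatives covered filters, normalization, limits, a replicate block and leaving out each library.

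The members and gene lists were chosen with earlier results of these data known. Transcripts were named as the chosen transcript with the largest shift and its partner in the members, 1 of which enters the counts but is not reported here, and list genes were named where called. Counting intervals were not computed for shares, since RSEM divides reads between transcripts.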

Additional observations from a re-analysis of the deposited data

Results flagged for a closer look

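The 12 members below had a gene level that differed between NF-YAl and NF-YAs (edgeR quasi-likelihood test, adjusted p under 0.05 over 17108 genes, no fold limit), which is what brought them here. Values are log2 of NF-YAl over NF-YAs ± SE, from 3 libraries against 3. Of all genes tested, 23.3% met the same limit.

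Higher in NF-YAl were C10orf11 (0.999 ± 0.16), CREB3L4 (0.96 ± 0.13), CRELD1 (0.81 ± 0.12), CDKN1C (0.70 ± 0.21), FGFRL1 (0.53 ± 0.11), MXI1 (0.47 ± 0.10), PPP2R2A (0.46 ± 0.10) and SERPINB7 (0.46 ± 0.12). Higher in NF-YAs were STMN3 (-0.76 ± 0.23), XRCC3 (-0.64 ± 0.12), FKBP9P1 (-0.57 ± 0.16) and TWNK (-0.44 ± 0.11). Calls of CDKN1C, STMN3, FKBP9P1 and SERPINB7 were lost when 1 of some libraries was left out.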

How the results depend on the processing

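The rule gave 31 genes. It gave 55 with a minimum of 1 TPM, 9 with 10 TPM, 76 with 15 points and 5 with 30 points, and 33 to 74 when a library was left out (60 without Empty replicate A, 74 without B, 48 without C). Leaving out a library also loosens the rule, as fewer libraries must lie on one side and reach the TPM limit. The counts with a library left out thus do not compare directly with 31. Of the members, 14 met the rule without each of the 9 libraries in turn and 17 did not in some case. Adding up transcripts within 30 nt left 25 genes and lost 9 members.

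Transcript usage between the lines had 26 calls, 16 with no filter on low counts, 50 with only the NF-YAl and NF-YAs libraries, 98 with limma, and 18 to 42 when a library was left out (42 without NF-YAl replicate B). The members' transcripts had 0 calls in each of these. Gene level calls among the members went from 0 to 1 with no filter, with only the libraries of these lines and with the replicate block, to 12 at an adjusted p under 0.05 with no fold limit, and were 0 to 1 when a library was left out. Regulator calls against Empty were 13 in NF-YAl and 29 in NF-YAs at an adjusted p under 0.05 with no fold limit, which 32.1% and 35.5% of all genes passed. They were 1 to 2 and 2 to 4 when a library was left out, the most without NF-YAl replicate A in both. The cause was not tested.

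Libraries share replicate letters. Correlations of same-letter libraries ran from -0.065 to 0.253, and those of libraries with different letters from -0.22 to 0.163. The ranges overlap and the highest value was in a same-letter pair, so whether the letters mark a pairing is not settled. The replicate block gave 25 usage calls, 0 among members, and 1 and 2 regulator calls. For single genes 561 values were counted as unchanged and 13 lost their call, with none reversed. The unchanged values include share differences from Empty that fell short of the rule's minimum shift. FUT2, for example, was at -17.2 points without NF-YAl replicate D, and FGFRL1 at 3.77 points without Empty replicate A. The count of 561 thus does not show that members kept meeting the rule, which 17 did not when some library was left out. Depth limits the shares of the 3 members with under 100 counts in some library.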
